A study of Mus musculus with 18 samples.

Results

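The 42 collagen genes of mouse chromosomes 1 to 19 were described here by the DNA methylation of their CpG sites in gonadal adipose tissue, hypothalamus and liver. Members were all genes whose symbol has the form Col, number, a, number in the RefSeq gene table of GRCm38.p6, which lists 49997 genes. The table holds 44 such genes, and Col4a5 and Col4a6 fell outside the rule because they lie on chromosome X. A CpG site belonged to a gene when it lay in the gene body or within 5 kb of either end and had at least 10 reads in both pools of its tissue. This gave 5100 of 1791267 tested sites in adipose tissue, 4195 of 1498379 in hypothalamus and 4406 of 1552923 in liver.

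The study measured 18 samples from male C57BL/6 mice at 3 weeks of age, 3 for each treatment and tissue. Pregnant dams were gavaged daily on days 1 to 20 post coitum with corn oil, either alone (control) or carrying bisphenol A (BPA) at 5 mg per kg, a building block of polycarbonate plastics that binds oestrogen receptors weakly. Parents of both groups ate chow low in isoflavones, and all offspring ate standard chow. Control offspring were born to 3 litters and exposed offspring to 4, with no label that ties a sample to its litter. Methylation was read by reduced representation bisulfite sequencing (RRBS), in which DNA is cut by MspI at CCGG so that CpG-rich fragments are sampled.

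Collagens are extracellular matrix proteins whose chains wind around each other into a helix, and the family is divided by the structures that the helices build. Fibrillar collagens form the tension-bearing fibrils of connective tissue, type IV collagens form the network of basement membranes around vessels, fat cells and epithelia, and type VI collagens form beaded filaments close to cells, abundantly in fat. Other classes sit on fibril surfaces (FACIT collagens), span the cell membrane, or carry large non-collagenous ends from which signalling fragments such as endostatin are cut. Methylation of CpG-rich gene starts is generally linked to silencing, whereas methylation inside gene bodies is common in active and inactive genes alike.

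The authors deposited 1 table per tissue, in which the 3 samples of a treatment are joined into a pool. The control group comes before the BPA group in the samples' description of each table, so pool 0 was read as control and pool 1 as BPA, and no label states this numbering. If it were reversed, every direction between control and BPA below would turn. Every level is therefore the share of methylated reads in a pool, with no error between animals, and every p-value compares pooled reads. In bulk tissue, a different mix of cells and a different methylation within cells cannot be told apart. Summed over listed CpG sites, the 6 pools held between 213672622 and 409016549 reads. Control and BPA pools covered the median collagen site with 151 and 175 reads in adipose tissue, with 101 and 103 in hypothalamus and with 145 and 135 in the liver. Sites of 11 hepatocyte marker genes were methylated on 45.7% of reads in the control pool of liver, against 66.0% in adipose tissue and 67.7% in hypothalamus. By the same measure the 9 adipocyte markers stood at 55.3% in adipose tissue, 61.6% in hypothalamus and 58.0% in liver. The 9 neuron markers hardly separated the tissues, at 39.8% in hypothalamus, 39.9% in liver and 42.0% in adipose tissue.

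The level of a collagen gene, taken as the methylated share of all reads over its tested sites, depended mainly on which gene it was. In the control pool of adipose tissue it ran from 11.5% in Col12a1, a FACIT collagen of tendon and muscle, to 91.8% in Col10a1, the collagen of cartilage growth plates, with a median of 65.2% over the 42 genes. The lowest, highest and median levels were 15.1%, 93.5% and 62.5% in hypothalamus and 14.1%, 92.8% and 63.7% in liver. Col12a1 was again the lowest in each, and the highest was Col6a2 in hypothalamus and Col10a1 in liver. Genes had between 13 and 337 tested sites in adipose tissue, with a median of 93. The beaded filament genes were highly methylated, with class medians of 79.4%, 84.7% and 82.6% in adipose tissue, hypothalamus and liver. The 4 basement membrane genes stood lower at 40.8%, 44.0% and 41.6%, and the 11 fibrillar genes at 65.7%, 61.2% and 55.7%. These levels include tested sites near gene starts, and the classes were not matched on them. In the control pool of adipose tissue the bodies of Col4a1, Col4a2 and Col4a4, more than 500 bp from a start, stood at 60.1%, 66.6% and 75.4%. The beaded filament genes Col6a2, Col6a3, Col6a4 and Col6a6 had no tested site within 500 bp of a start.

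**Figure D1:**
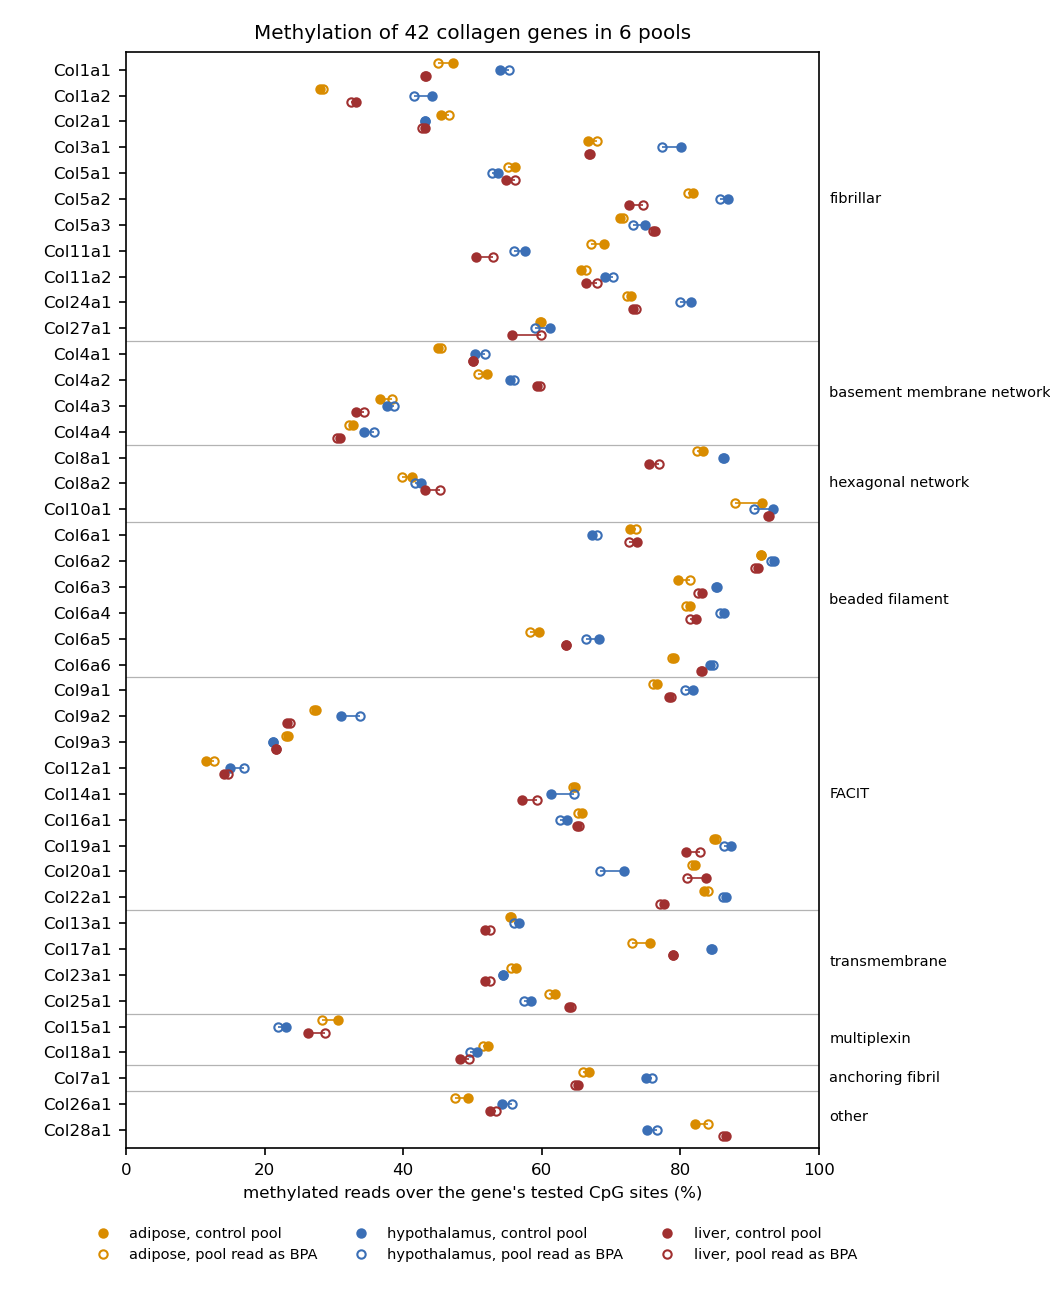
Methylated share of reads over the tested CpG sites of each of the 42 collagen genes (x axis, percent), grouped by class. Filled points are control pools and open points are pools read as BPA, and lines join the pools of a tissue. Control and BPA pools of a tissue lie close together, at most 4.15 points apart in liver, whereas genes span the range from 11.5% to over 90%.

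Gene starts were far less methylated than gene bodies. Start positions came from the RefSeq promoter table, which has an entry for 33 of the 42 genes. Col5a2, Col4a3, Col9a3, Col26a1, Col12a1, Col1a1, Col14a1, Col22a1 and Col2a1 have none. Within 500 bp of a start, 22 genes had at least 5 tested sites in adipose tissue, and their median level was 1.94%. The medians were 6.84% over 20 genes in hypothalamus and 2.86% over 19 genes in liver. All genes of the table with as many sites had medians of 0.719%, 0.506% and 0.949%. Levels under 10% were found at 17 of 22 collagen starts in adipose tissue, 12 of 20 in hypothalamus and 16 of 19 in liver. Of all genes, 83.7%, 84.2% and 84.0% were under 10%, and the shares were not tested against each other. Col5a1, which seeds fibrils of type I collagen, stood at 0.61%, 0.55% and 1.79% in adipose tissue, hypothalamus and liver, while its body more than 500 bp from a start stood at 75.5%, 81.9% and 78.6%. Col9a1, a cartilage collagen, was the only gene with at least 5 start sites that stood above 50%, with 50.5%, 72.0% and 56.7% around its starts.

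The sequences of 5 of these starts show what was read there. Each line gives the 250 bases before the start from RefSeq (GRCm38.p6), 5′ to 3′ on the gene's strand, with capitals for the CpG sites measured in at least 1 tissue. Col4a1 and Col4a2 are shown because they are transcribed in opposite directions, with starts 21 bp apart, and remain nearly unmethylated in every tissue. Their gene bodies overlap at the starts, so the window shown for each lies inside the body of the other. Col16a1 and Col9a2 are shown because their starts were more methylated in hypothalamus, and Col1a2 because it encodes a chain of type I collagen, the main collagen of connective tissue.
Col4a1, chr8:11312827-11313076, minus strand: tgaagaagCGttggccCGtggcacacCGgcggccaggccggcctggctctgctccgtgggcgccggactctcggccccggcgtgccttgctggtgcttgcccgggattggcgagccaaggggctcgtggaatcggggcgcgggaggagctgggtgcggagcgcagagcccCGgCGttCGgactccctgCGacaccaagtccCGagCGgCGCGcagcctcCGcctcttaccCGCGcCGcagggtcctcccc
Col4a2, chr8:11312555-11312804, plus strand: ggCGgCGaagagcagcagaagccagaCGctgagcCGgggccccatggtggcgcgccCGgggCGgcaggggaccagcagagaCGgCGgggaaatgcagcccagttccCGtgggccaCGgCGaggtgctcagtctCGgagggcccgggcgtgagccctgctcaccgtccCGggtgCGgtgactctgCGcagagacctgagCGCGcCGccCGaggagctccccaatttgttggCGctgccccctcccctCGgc
Col16a1, chr4:130047590-130047839, plus strand: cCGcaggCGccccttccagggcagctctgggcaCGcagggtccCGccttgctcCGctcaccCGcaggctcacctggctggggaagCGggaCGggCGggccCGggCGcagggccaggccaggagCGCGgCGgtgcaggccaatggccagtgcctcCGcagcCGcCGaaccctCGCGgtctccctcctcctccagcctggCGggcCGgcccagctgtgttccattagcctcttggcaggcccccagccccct
Col9a2, chr4:121039316-121039565, plus strand: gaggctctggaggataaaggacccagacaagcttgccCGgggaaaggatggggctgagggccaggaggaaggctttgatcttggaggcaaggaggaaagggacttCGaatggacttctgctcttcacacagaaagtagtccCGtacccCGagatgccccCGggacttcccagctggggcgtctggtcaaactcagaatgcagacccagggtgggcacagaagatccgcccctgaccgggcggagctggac
Col1a2, chr6:4505368-4505617, plus strand: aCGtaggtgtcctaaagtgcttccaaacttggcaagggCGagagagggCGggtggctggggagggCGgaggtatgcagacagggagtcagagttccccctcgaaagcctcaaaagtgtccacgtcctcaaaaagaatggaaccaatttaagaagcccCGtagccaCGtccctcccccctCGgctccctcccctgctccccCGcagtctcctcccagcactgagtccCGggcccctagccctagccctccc

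The 5 windows hold different numbers of CpG sites, from 9 in Col9a2 to 31 in Col4a1. The MspI motif CCGG, which reads the same on both strands, occurred in 15 of 36 such windows of the 33 collagen genes (41.7%) and in 47.1% of all 32851 promoter windows of that length. The median window held 9.5 CpG sites in collagen genes and 6 in all genes. Sites were measured in 14 of the 36 collagen windows, 12 of which contain the motif. In the Col4a1 window the control level was 0.90% in adipose tissue, 0.43% in hypothalamus and 0.98% in liver, and in the Col4a2 window it was 0.39%, 0.42% and 0.66%. All 21 CpG sites of the Col16a1 window were measured, at 1.66% of 2897 reads in adipose tissue, 10.4% of 2530 in hypothalamus and 2.47% of 3033 in liver. The 5 measured sites of the Col9a2 window stood at 14.5% of 814 reads, 31.9% of 633 and 13.5% of 924 in the same order. In the Col1a2 window the levels were 1.29%, 4.71% and 1.75%. Hypothalamus was the highest of the control pools in the last 3 windows, of which those of Col16a1 and Col9a2 were chosen for this. Hypothalamus showed no such excess in the Col4a1 and Col4a2 windows, which were chosen for their low level in every tissue.

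Site by site, every collagen start site that differed between the control pools of adipose tissue and hypothalamus was higher in hypothalamus. Of 499 sites within 500 bp of a start, 79 were called (adjusted Fisher p under 0.05 and at least 5 points), spread over 12 of 23 genes. This is 15.8% of the sites, against 3.47% of all such sites of the table's genes, of which 71.4% were higher in hypothalamus. Between hypothalamus and liver 70 of 488 sites were called, 69 of them lower in liver, which is 14.3% against 4.27% over all genes, where 57.6% were lower. Between adipose tissue and liver only 26 of 489 sites were called (5.32% against 3.90%), 8 higher and 18 lower in liver. The collagen starts were not matched on level to those of all genes, so these shares describe the family and test nothing. Sites on the same read are not independent, and the pairs share control pools.

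Among these starts, Col18a1, the source of endostatin, had 15 of 41 sites higher in hypothalamus than in adipose tissue, at a level of 16.1% in adipose tissue and 23.5% in hypothalamus. It also held 13 of the 26 start sites called between adipose tissue and liver, all lower in liver, where its level was 6.23%. Col4a4, a type IV collagen chain of the kidney filter, had 14 of 32 sites higher in hypothalamus, at 11.3% against 3.85% in adipose tissue and 2.87% in liver. Col16a1, a FACIT collagen of small fibrils, had 13 of 25 sites higher than in adipose tissue, and its level over the whole start window was 12.2% against 2.69%. Col6a5, a beaded filament chain, had 11 of 14 sites higher, at 43.1% against 20.9%. Col9a2 had 8 of 24, at 15.2% against 4.78%, and Col9a1 had 5 of 5. Col7a1, which anchors skin epithelium to the dermis, had 3 of 16 sites higher than in adipose tissue and 9 of 16 higher than in liver.

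**Figure D2:**
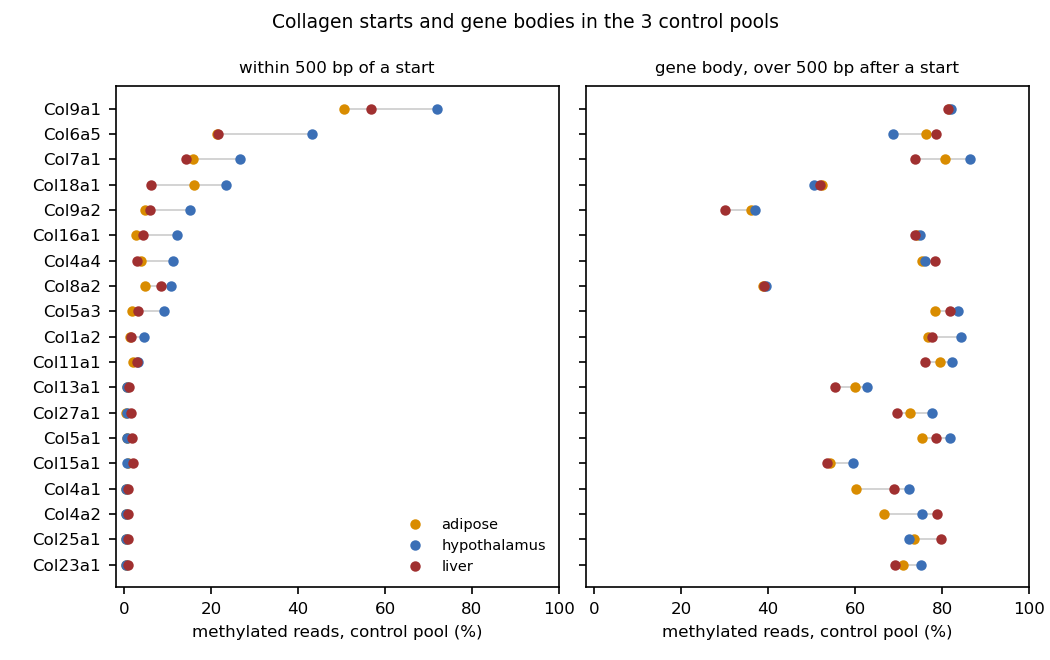
Control-pool methylation (percent of reads) within 500 bp of the start (left) and in the gene body beyond it (right) for the 19 collagen genes with at least 5 start sites in each tissue, ordered by the level in hypothalamus at the start. Most starts lie under 10% while bodies lie mostly between 50% and 90%, and at Col6a5, Col7a1, Col18a1, Col9a2, Col16a1 and Col4a4 the hypothalamus point lies to the right of the others.

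Over whole genes and their flanks, the control pools of the tissues differed at 21.4% to 23.0% of the collagen sites tested in both. Adipose tissue and hypothalamus differed at 908 of 4247 sites (21.4%), against 13.3% of all sites. Of these 908, 746 or 82.2% were higher in hypothalamus, against 70.7% of all called sites. Adipose tissue and liver differed at 999 of 4449 sites (22.5% against 16.9%), 572 higher and 427 lower in liver. The share higher in liver was 57.3%, against 51.8% of all called sites. Hypothalamus and liver differed at 944 of 4099 sites (23.0% against 17.3%), 672 of them lower in liver. Here 28.8% were higher in liver, against 34.4% of all called sites, so the lean towards hypothalamus was not particular to collagen genes. More collagen sites than other sites lay between 20% and 80% methylation, 33.2% against 22.2% in adipose tissue. The part of this in the larger share of calls was not tested. These are counts of pooled reads, and no spread between animals enters them.

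Among the fibrillar genes, those of types I and III collagen and Col5a2 were higher in hypothalamus at every site called against either other tissue. For Col5a2 this rests on only 2 called sites against adipose tissue. Outside this class, Col8a1 and Col6a2 had the same pattern. Col1a1 and Col1a2 encode the chains of type I collagen and Col3a1 the chain of type III collagen that accompanies it in soft organs. Between adipose tissue and hypothalamus, 32 of 86 shared sites of Col1a1 (chromosome 11, 94936224 to 94953042), 11 of 31 of Col1a2 (chromosome 6, 4505618 to 4541543) and 5 of 11 of Col3a1 were called, and all 48 were higher in hypothalamus. Over shared sites Col1a1 stood at 46.4% of reads in adipose tissue and 53.9% in hypothalamus, Col1a2 at 26.3% and 44.2%, and Col3a1 at 67.5% and 80.1%. By gene level, liver lay closer to adipose tissue than to hypothalamus. At single sites this was less clear for Col1a1. Between adipose tissue and liver 27 of its 93 shared sites were called, 13 higher and 14 lower in liver. For Col1a2 7 of 31 sites were called in this pair, and for Col3a1 2 of 10. Between hypothalamus and liver all 27 called sites of Col1a1, all 8 of Col1a2 and all 6 of Col3a1 were lower in liver, at gene levels of 42.7%, 33.2% and 66.8% there. The leading Col1a2 site between adipose tissue and hypothalamus, at 4504369 in the flank before the start, was methylated on 11.0% of 318 reads in adipose tissue, 52.3% of 216 in hypothalamus and 36.3% of 303 in liver. The leading Col1a1 site between hypothalamus and liver, at 94948759 in the body, stood at 76.1% of 176 reads and 26.2% of 313, with 65.8% of 310 in adipose tissue.

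The fibrillar genes Col5a2 and Col11a1 were lower in liver than in adipose tissue at most called sites. Col5a2, a regulatory chain of type V collagen, was lower in liver than in hypothalamus at 13 of 13 called sites (87.1% against 72.6% over shared sites) and lower than in adipose tissue at 10 of 11. Col11a1, a cartilage fibril chain, was lower in liver than in adipose tissue at 10 of 11 called sites, with a level of 50.4% against 69.3%, a difference of -18.9 points over reads and -10.1 with equal site weight. Its level was also lower in hypothalamus than in adipose tissue by -11.7 points over all reads, although its 4 called sites were all higher there, and with each site weighted equally the difference was 1.25 points. That gene-level direction therefore rests on the sites with most reads.

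The basement membrane pair Col4a1 and Col4a2, side by side on chromosome 8 (11198423 to 11312889 and 11312805 to 11449287), was least methylated in adipose tissue. Against liver, 58 of 193 Col4a1 sites were called, 46 higher and 12 lower in liver, and 76 of 244 Col4a2 sites, 70 higher and 6 lower. Against hypothalamus, 49 of 58 called Col4a1 sites and 57 of 70 called Col4a2 sites were higher in hypothalamus. The gene levels over shared sites were 45.2% in adipose tissue and 50.0% in liver for Col4a1, and 51.8% and 59.1% for Col4a2. The leading Col4a2 site, at 11393316, stood at 7.21% of 305 reads in adipose tissue, 74.7% of 170 in hypothalamus and 68.9% of 299 in liver, so that adipose tissue did not overlap the other tissues within counting error.

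Beaded filament genes ranged from few to many called sites. Col6a2 (chromosome 10, 76595756 to 76623630), a chain of the ubiquitous type VI collagen, was above 91% in every control pool and differed at 2 of 85 sites between adipose tissue and hypothalamus and at 7 of 85 between adipose tissue and liver. Col6a3, the type VI chain from which endotrophin is cut, differed at 12 of 75 and 14 of 79 sites, with as many sites higher as lower in hypothalamus (6 and 6). Col6a1 was lower in hypothalamus than in adipose tissue by -3.96 points over reads, but higher by 0.71 points with equal site weight, and 6 of its 13 called sites were higher. Col6a5 had 20 of 37 sites called between adipose tissue and hypothalamus, 17 of them higher in hypothalamus, at 68.6% against 58.6%. Col6a6, a minor type VI chain, had 50 of 116 sites called in the same pair, 29 higher and 21 lower in hypothalamus, and 31 of 112 between adipose tissue and liver, 24 higher and 7 lower in liver.

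In the remaining classes, Col17a1, the transmembrane collagen of hemidesmosomes, and Col7a1 were higher in hypothalamus than in adipose tissue at 21 of 23 and 22 of 22 called sites, with levels of 84.4% against 75.7% and 75.0% against 66.2%. Col8a1, a hexagonal network collagen of vessel walls, was lower in liver at all 15 and all 16 sites called against adipose tissue and hypothalamus. The FACIT genes Col14a1 and Col22a1 were lower in liver than in adipose tissue at 26 of 33 and 15 of 15 called sites. A few genes ran the other way over reads, with hypothalamus lowest. Col28a1, a collagen known from peripheral nerves, stood at 75.2% in hypothalamus against 82.1% in adipose tissue and 86.5% in liver. With equal site weight its difference from adipose tissue was -1.02 points instead of -6.98, and liver was above hypothalamus by 4.79 instead of 11.4. The CpG at 8044720, its leading site, stood at 61.7% of 240 reads in adipose tissue and 19.2% of 213 in hypothalamus. Col20a1 stood at 72.2% against 82.1% in adipose tissue and 83.6% in liver over 13 shared sites, but with equal site weight hypothalamus differed from adipose tissue by -0.69 points instead of -9.92, and liver from hypothalamus by -0.05 instead of 11.4. Col15a1, a vessel-associated multiplexin, had a lower level in hypothalamus than in adipose tissue (23.0% against 27.7%), yet 16 of its 17 called sites were higher there and the difference with equal site weight was 6.28 points. Col25a1, a membrane collagen of neurons, was higher in liver than in hypothalamus at 22 of 30 called sites, and Col18a1 was split, with 20 higher and 42 lower in liver.

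**Figure D3:**
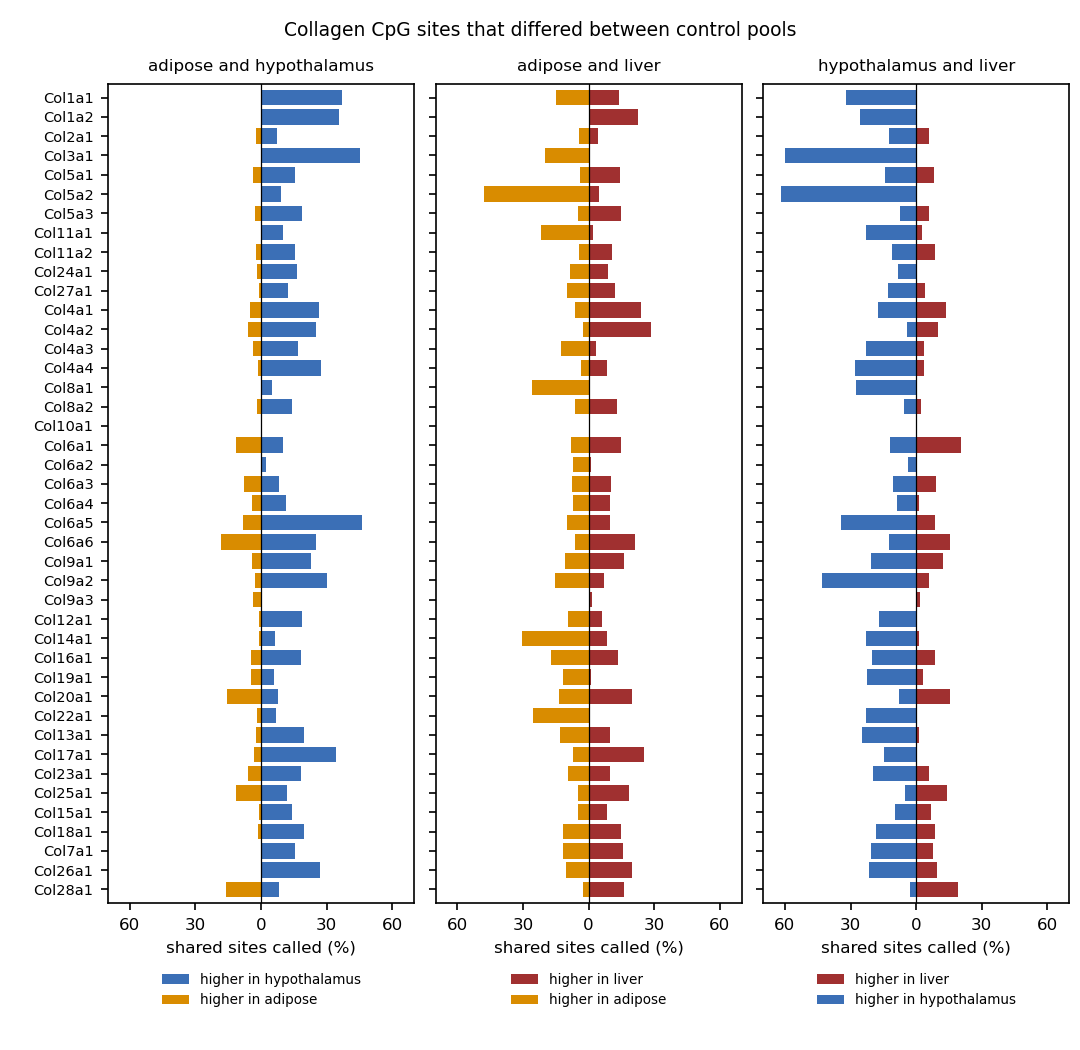
Share of each collagen gene's shared CpG sites (percent of sites, x axis) that were called between control pools, for the 3 pairs of tissues. Bars to the right are sites higher in the tissue named second and bars to the left are sites higher in the tissue named first. Bars point mainly towards hypothalamus in both panels that contain it. All called sites leaned the same way, with 70.7% higher in hypothalamus than in adipose tissue and 34.4% higher in liver than in hypothalamus. The fibrillar genes Col1a1, Col1a2, Col3a1 and Col5a2 have no called site that is lower in hypothalamus.

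Between BPA and control pools no collagen gene's level over its reads differed by 5 points or more in any tissue. With each site weighted equally, Col3a1 in hypothalamus did, with a difference of -6.07 points against -2.69 over reads. The differences, BPA minus control, ran from -3.93 to 1.84 points in adipose tissue (median -0.51), from -3.35 to 3.40 in hypothalamus (median -0.46) and from -2.69 to 4.15 in liver (median 0.26). Col1a1 stood at 47.1% and 45.0% in the control and BPA pools of adipose tissue, Col1a2 at 28.0% and 28.4%, and Col3a1 at 66.6% and 68.0%. Col6a1, Col6a2 and Col6a3 stood at 72.7% and 73.6%, at 91.6% in both pools and at 79.7% and 81.4%. The largest difference of a gene in liver over reads was that of Col27a1, from 55.7% to 59.8%. With equal site weight it was 1.26 points, and Col11a1 had the largest at 3.75.

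In adipose tissue, 40 collagen sites in 23 genes were called between the pools, which is 0.784% of the tested collagen sites against 0.545% of all sites. Of these, 18 were higher in the BPA pool, in 12 genes, and 22 lower, in 15 genes, where 0.259% and 0.286% of all sites were called higher and lower. The absolute differences ran from 7.98 to 52.4 points among higher sites and from 6.06 to 36.7 among lower sites, with medians of 16.0 and 16.2. Within the band of 20% to 80% methylation the share called was 1.59% of collagen sites and 1.26% of all sites. A start position was known for the genes of 35 of these sites, of which 0 lay within 500 bp of it and the closest was 1109 bp away. How often start sites of all genes were called between these pools was not counted. The other 5 called collagen sites, in Col26a1, Col12a1, Col1a1 and Col2a1, could not be placed against a start. Over all sites, squared differences of the adipose pools averaged 2.02 times what counting error gives, and with p-values scaled by this excess no collagen site was called in adipose tissue. The individual sites below are therefore differences between 2 pools of reads, and whether they exceed the spread between animals was not tested.

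The called sites of the basement membrane genes in adipose tissue, 6 of 528 tested (1.14%, against 0.545% of all sites), were all higher in the BPA pool. Col4a1 had 5 and Col4a2 had 3, of which 2 lie in the body of Col4a1 and within 5 kb of the start of Col4a2 and count for both. The leading one, at 11308904 on chromosome 8, was methylated on 46.6% of 586 reads in control and 62.5% of 632 in BPA. The difference was 15.9 points (95% interval 10.3 to 21.4, adjusted Fisher p = 0.00016). Its neighbour at 11308944 went from 31.6% of 332 reads to 47.7% of 321, and all 3 tested sites of this 41 bp stretch were higher. With 250 bp added on either side, 5 of 12 sites were higher with a median difference of -0.61 points, so the difference did not extend beyond the stretch. In liver the leading site stood at 43.5% and 43.6%, and in hypothalamus at 50.6% and 55.7%. Further out, Col4a1 was higher at 11226237 (52.1% to 69.5%), 11282286 (64.1% to 74.8%) and 11303889 (82.1% to 99.2%), and Col4a2 at 11446096 (81.0% to 92.3%).

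Beaded filament genes had 6 called sites of 546 tested in adipose tissue (1.099%, against 0.545% of all sites), 1 higher and 5 lower in the BPA pool. Of all sites, 0.259% were called higher and 0.286% lower. Whether the split of this class differs from that of all sites was not tested. Col6a6 (chromosome 9, 105689417 to 105828246), had 3 lower sites within 53 bp, led by the one at 105774775 with 54.3% of 326 reads against 32.0% of 309. This was a difference of -22.3 points (interval -29.5 to -14.6, adjusted Fisher p = 0.000108), the smallest adjusted p of a collagen site in this tissue. All 4 tested sites of the stretch were lower, at 55.7% against 40.4% over their reads, and 2 of the 12 sites within 250 bp were higher. The same 4 sites stood at 71.8% and 74.1% in hypothalamus and at 57.7% and 57.3% in liver. Col6a4 and Col6a2 had 1 lower site each, the latter at 87.8% against 77.3%, and Col6a3 had 1 higher site, at 64.6% against 82.5%.

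Fibrillar genes had 2 higher and 5 lower sites in adipose tissue. These are 0.565% of their 1238 tested sites, close to the 0.545% of all sites. Col1a2 was higher at 4504509, 1109 bp before its start, with 15.7% of 343 reads against 27.7% of 347, a difference of 11.9 points (interval 5.79 to 18.0). The same site stood at 50.0% and 52.6% in hypothalamus and at 33.4% and 34.5% in liver. Col1a1 was lower at 94944309 in its body, with 31.1% of 318 reads against 18.4% of 337. Col5a1 (chromosome 2, 27886381 to 28039510) was higher at 27901685 (30.5% to 47.3%) and lower at 27925837 and 28004140, where 33 and 52 control reads were all methylated against 63.3% of 49 and 71.9% of 57 in the BPA pool. Col2a1 and Col11a2, both known from cartilage, had 1 lower site each.

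Transmembrane genes had 2 higher and 5 lower sites, or 0.753% of their 930 tested sites against 0.545% of all sites. Col13a1, a collagen of cell adhesion sites (chromosome 10, 61838234 to 61979206), had 3 lower sites within 111 bp, led by the one at 61928715 (47.7% of 218 reads to 26.1% of 245), and 1 higher site at 61944652 (70.9% to 84.0%). Over the 3 sites the level went from 63.3% to 48.1%, while it was 61.9% and 62.7% in hypothalamus and 52.6% and 47.1% in liver. Col25a1 had 1 higher and 1 lower site. The higher one rested on few reads, with 0 of 29 against 37.5% of 48, and the lower one, at 130360874, went from 64.0% of 308 to 49.5% of 382. Col17a1 was lower at 1 site (68.6% to 55.5%).

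The multiplexin genes Col18a1 and Col15a1 had 3 called sites of 404 tested (0.743%, against 0.545% of all sites), all higher. Those of Col18a1 lie 63 bp apart, at 77124905 (69.1% of 304 reads to 83.0% of 311) and 77124968 (81.3% of 529 to 89.3% of 563), where hypothalamus and liver stood above 92% in both pools. The site of Col15a1 had the largest difference, 52.4 points, on only 28 and 21 reads (interval 26.9 to 69.2). Col16a1 had 2 higher sites, at 49.6% against 62.7% and 21.2% against 37.6%, and Col19a1 had 1. Lower sites were found in Col8a2 (2), a collagen of the corneal Descemet membrane, in Col26a1 (2), led by 53.6% against 30.6%, and in Col10a1 and Col12a1 (1 each). Col7a1 had 1 site in each direction, both in its flanks. The FACIT genes, which include Col16a1, Col19a1 and Col12a1, had 4 called of 794 tested sites (0.504%, against 0.545% of all sites). The hexagonal network genes, which include Col8a2 and Col10a1, had 3 of 268 (1.12%). Col7a1 had 2 of 156 (1.28%), and Col26a1 and Col28a1 together had 2 of 236 (0.847%).

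**Figure D4:**
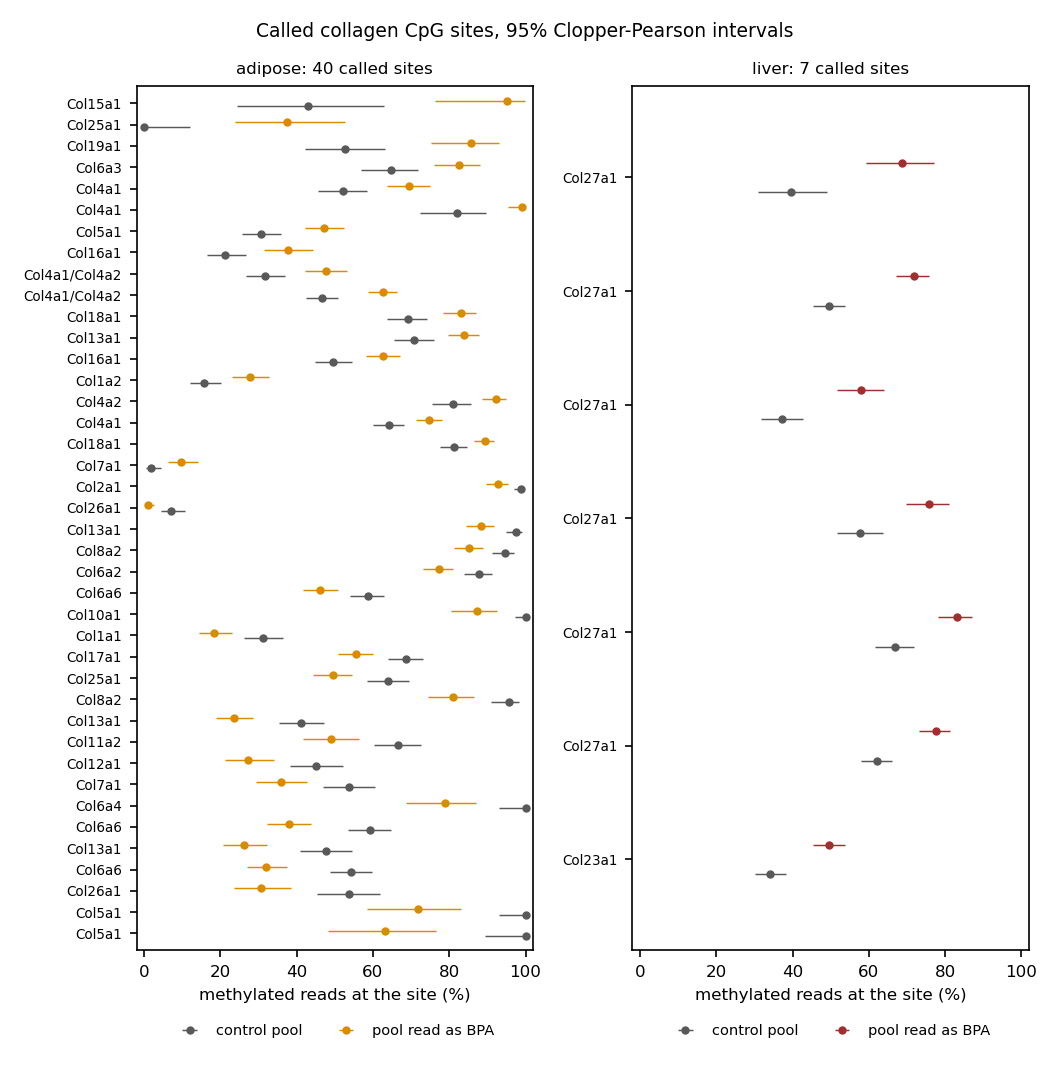
Methylated reads (percent, x axis) at each called collagen site in adipose tissue and liver, with the control pool in grey, the pool read as BPA in colour and 95% Clopper-Pearson intervals, which cover counting error only. Sites are ordered by their difference. In adipose tissue the differences point both ways, and in liver all 7 sites are higher in the pool read as BPA.

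In the liver 7 collagen sites were called, all higher in the BPA pool, 6 of them in Col27a1 and 1 in Col23a1. This is 0.159% of the tested collagen sites, against 0.0265% of all sites, with 0.0187% called higher and 0.00773% lower. Within 20% to 80% methylation the shares were 0.507% and 0.103%. Over all sites, squared differences of the liver pools averaged 1.25 times what counting error gives. With p-values scaled by this excess 4 calls were left, those of Col27a1 at 63256887, 63256912 and 63257136 and that of Col23a1. The 11 hepatocyte marker genes were also higher in the BPA pool, 11 of 11 by level, from 45.7% to 49.0% of reads over their sites, with no called site. In the other marker lists of liver, 6 of 11 endothelial, 6 of 9 adipocyte, 6 of 9 fibroblast and stellate and 5 of 12 leukocyte genes were higher. For neurons, oligodendrocytes, astrocytes and epididymis and testis these were 4 of 9, 3 of 6, 3 of 5 and 4 of 8. The share of all genes that were higher was not counted. The part of the hepatocyte marker difference in the Col27a1 and Col23a1 differences was not tested.

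Col27a1 encodes a fibrillar collagen of cartilage and hosts the microRNA gene Mir455, whose mature microRNAs have been studied in cartilage and fat. The 6 sites lie within 323 bp of its body (chromosome 4, 63256814 to 63257136; the gene spans 63214009 to 63334991), and 2 of them fall inside the mature microRNA sequences, which are shown for this reason. They are given from RefSeq (GRCm38.p6, plus strand), 5′ to 3′, with the seed (bases 2 to 8) and the measured CpG in capitals.
mmu-miR-455-5p, chr4:63256867-63256888: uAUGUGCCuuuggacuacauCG
mmu-miR-455-3p, chr4:63256904-63256924: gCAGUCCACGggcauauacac

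The CpG at 63256887 forms bases 21 and 22 of mmu-miR-455-5p and went from 49.5% of 545 reads in the control pool to 71.7% of 435 in the BPA pool. That is a difference of 22.2 points (interval 16.1 to 28.0, adjusted Fisher p = 5.23e-08), the smallest adjusted p of any collagen site in liver. The CpG at 63256912 forms bases 9 and 10 of mmu-miR-455-3p, directly after its seed, and went from 62.1% of 551 reads to 77.5% of 431. The other called sites went from 39.7% to 68.8% at 63256814, from 66.9% to 83.0% at 63257076, from 57.8% to 75.7% at 63257111 and from 37.1% to 57.9% at 63257136. All 13 tested sites of the stretch were higher in the BPA pool, at 59.1% of 4275 reads against 74.0% of 3501. With 250 bp added on either side all 19 sites were higher, by a median of 16.2 points, and differences shrank to 0.57 and 1.60 points at the 2 sites near 90% in the middle of the stretch.

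The stretch was a place of strong tissue difference. Its reads were 92.7% methylated in the control pool of adipose tissue and 95.7% in hypothalamus, with 93.4% and 95.2% in their BPA pools, so only liver was partly methylated. The Col27a1 site that differed most between control pools lies in it, at 63256826, with 35.3% of 439 reads in liver against 96.0% of 371 in adipose tissue and 96.0% of 249 in hypothalamus. The difference between BPA and control pools was not shown to differ between tissues at these sites. Adipose tissue and hypothalamus were nearly fully methylated there, which left little room for a rise. The test that follows therefore cannot decide whether the change was shared. For the Col27a1 sites, the adjusted p of this difference (Wald test, log odds ratios) ran from 0.487 to 0.834 against adipose tissue and was 1 against hypothalamus.

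**Figure D5:**
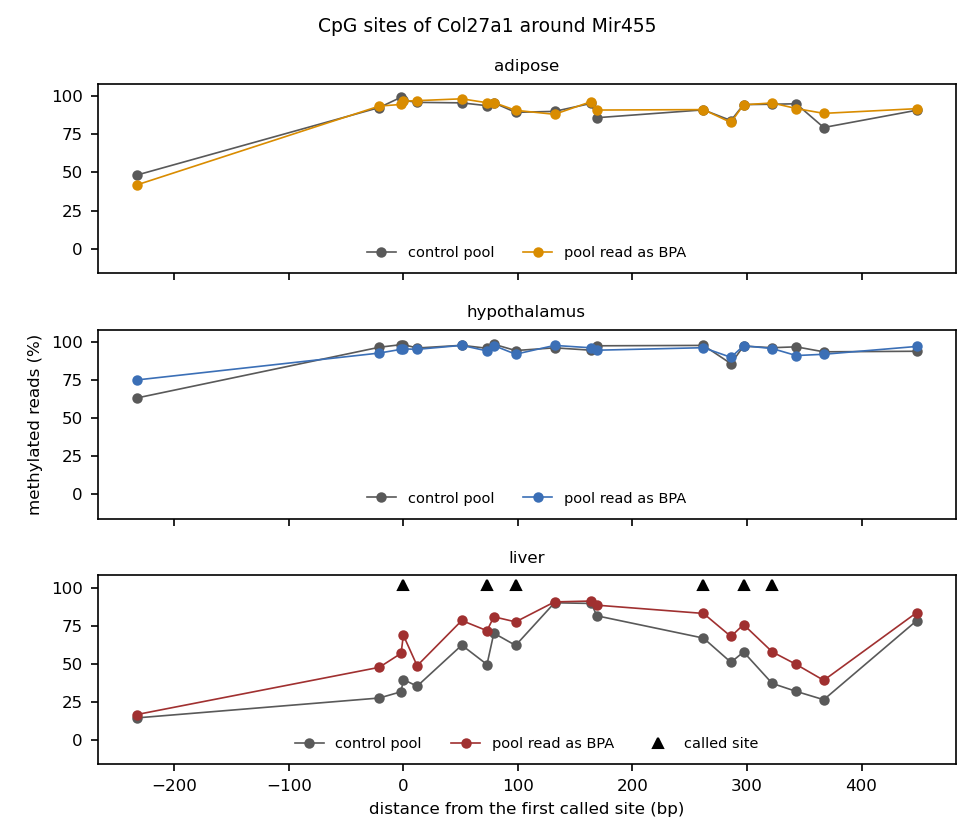
Methylated reads (percent) at the 19 tested Col27a1 sites around Mir455, by distance from the first called site in bp, with the control pool in grey, the pool read as BPA in colour and triangles at called sites. In liver the BPA pool lies above the control pool at all 19 sites, while nearly all points of adipose tissue and hypothalamus lie close together near the top.

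Another microRNA gene, Mir711, lies in Col7a1. Its CpG at 108969976 forms bases 7 and 8 of mmu-miR-711 (chr9:108969970-108969991: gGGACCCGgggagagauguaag, capitals as above), and no difference was called there. The levels of the control and BPA pools were 83.3% and 87.1% in adipose tissue, 83.7% and 86.3% in hypothalamus, and 78.5% and 75.2% in liver.

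Col23a1, a transmembrane collagen (chromosome 11, 51289679 to 51583925), had its called liver site at 51493852 in the gene body. It went from 34.2% of 562 reads to 49.6% of 573, a difference of 15.4 points (interval 9.68 to 21.0, adjusted Fisher p = 0.00104). In the control pools of adipose tissue and hypothalamus the site stood at 72.3% and 85.5%, and their BPA pools at 71.7% and 86.4%. As at Col27a1, liver was the least methylated tissue at this site.

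In the hypothalamus no collagen site was called, where 0.00487% of all sites were, 0.00287% higher and 0.002% lower. At an unadjusted Fisher p under 0.05, 177 sites or 4.22% differed, against 3.39% of all sites. No other tool was run on them. The median collagen site had about 100 reads per pool in this tissue, fewer than in the other tissues. The part of this lower depth in the lack of calls was not tested. Among the 33 genes with a known start, no site within 500 bp of it was called between BPA and control pools in any tissue. How often start sites of all genes were called was not counted. With 0.00487% of all sites called in hypothalamus and 0.0265% in liver, the lack of a call says little about collagen starts in these tissues.

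No collagen site had a BPA against control difference that differed between tissues after adjustment by the Wald test. Of all sites, 0.0277% were called between adipose tissue and hypothalamus, 0.0512% between adipose tissue and liver and 0.00393% between hypothalamus and liver. The smallest adjusted p of a collagen site was 0.0573, 0.0788 and 0.790, and 290, 365 and 180 collagen sites had an unadjusted p under 0.05, which is 6.95%, 8.33% and 4.50% against 5.42%, 6.57% and 3.67% of all sites. The smallest belonged to the Col16a1 site at 130054284, which went from 49.6% to 62.7% in adipose tissue and from 53.6% to 45.5% in hypothalamus. The next was the shared Col4a1 and Col4a2 site at 11308944, which rose by 16.0 points in adipose tissue and differed by -6.69 points in liver.

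Genes that make or bind collagen were described alongside. The 32 genes of collagen synthesis and cross-linking held 16 called sites in adipose tissue, 10 higher and 6 lower in 11 genes, which is 0.505% of their 3167 sites against 0.545% of all sites. The leading ones were Plod2, a lysyl hydroxylase (26.9% to 49.3%), Loxl1 and Loxl3, lysyl oxidase-like cross-linkers (24.8% to 10.8% and 60.3% to 78.0%), Pcolce, an enhancer of procollagen cleavage (24.2% to 62.1% on 62 and 66 reads), and Crtap, a partner of prolyl hydroxylation (79.6% to 64.6%). The 10 receptor genes held 6 called sites, 1 higher and 5 lower, or 0.653% of 919. Itga10, a chondrocyte integrin, had 3 lower sites, Itga1, an integrin for type IV collagen, and Mrc2, a collagen uptake receptor, 1 lower site each, and Lair1, an inhibitory receptor of immune cells, 1 higher site. Neither list had a called site in hypothalamus or liver.

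Marker genes of several cell types carried called sites in adipose tissue, where 0.545% of all sites were called. The 10 fibroblast and stellate cell markers, 9 with tested sites, held 9 called sites of 714 (1.26%), 3 higher and 6 lower, and the gene levels were 7.88% to 74.4% in the control pool. Over all their sites the level went from 37.4% to 36.2%. The 11 endothelial markers held 10 called sites of 846 (1.18%), 2 higher and 8 lower, with a summed level of 42.4% and 42.0%. The adipocyte markers held 2 higher sites and 1 lower of 465 (0.65%), the 12 leukocyte markers 2 lower sites of 291 (0.69%), and the 9 markers of epididymis and testis 0 of 153. Markers of cells foreign to fat had shares in the same range, with 5 of 280 sites for astrocytes (1.79%), 9 of 814 for oligodendrocytes (1.11%), 3 of 264 for hepatocytes (1.14%) and 6 of 1668 for neurons (0.36%). The part of the mix of cells in the collagen differences of adipose tissue was not tested.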

How the data were processed

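DNA methylation was measured by RRBS in 18 mouse samples, in 3 tissues with 3 samples per treatment. The submitters' processing notes name BSMAP and the build GRCm38 (mm10). The version of BSMAP and any removal of PCR copies are not given in the sources used here. The deposited read counts are, per the file headers, the total reads at a CpG in a pool of samples, and the deposited fraction is the methylated share of them. Methylated reads were taken as their product, rounded to whole reads. The deposited p-value is that of a two-sided Fisher's exact test between the pools. It was recomputed on 5000 sites per table and was the same within 1% on 99.78% of them in adipose tissue, 99.84% in hypothalamus and 99.72% in liver. No column of per-sample values was left unmapped, as the tables hold pools only.

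Sites with at least 10 reads in both pools on nuclear chromosomes were tested, 1876099 in adipose tissue, 1569349 in hypothalamus and 1628817 in liver, and p-values were adjusted by the Benjamini-Hochberg procedure over all of them. Called sites had an adjusted p under 0.05 and differed by 5 percentage points or more. Fisher's exact test was run likewise between the control pools of each pair of tissues, and differences between tissues in the BPA effect by a Wald test of log odds ratios with 0.5 added to each cell. Level intervals are Clopper-Pearson and difference intervals Newcombe, both 95%. Reads made by PCR and lacking molecular identifiers are no independent molecules, so intervals cover counting error only. The excess over counting error is the mean squared standardized difference over sites with expected counts of at least 5. A gene level is the methylated share of all reads over its sites. Positions are 1-based on GRCm38, and exons and introns were not used here. The functions were tested on simulated data. Python 3.11.15, numpy 2.4.6, scipy 1.17.1 and pandas 2.3.3 were used.

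The members, gene classes, pathway lists and marker lists were chosen with earlier results of these data known. Genes named are those with the most called sites per tissue (up to 10), the 5 with the largest level difference in each direction per tissue pair, and Col1a1, Col1a2, Col3a1, Col4a1, Col4a2, Col6a1, Col6a2, Col6a3, Col18a1 and Col27a1. Genes with single called sites, the genes of the start windows and the microRNA genes were added after their values were seen. Alternatives changed the coverage and difference minima, the scaling of p, flanks, the deepest sites, the adjustment, the pools and the weighting.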

Additional observations from a re-analysis of the deposited data

Results flagged for a closer look

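The 2 collagen genes on chromosome X lie outside the comparisons above, and 1 of their sites differed between the adipose pools. At 141248098 on chromosome X, in Col4a6, a type IV collagen chain of some basement membranes, all 175 reads of the control pool were methylated against 91.4% of 221 reads in the pool read as BPA. The difference was -8.60 points (95% interval -13.0 to -4.89, adjusted Fisher p = 0.0105), and with p-values scaled by the excess over counting error the adjusted p was 1. It drew attention because it is a difference in data that the chromosome rule leaves out. The gene as a whole stood at 60.6% and 61.1% over 48 sites in adipose tissue, and no site of Col4a6 was called in hypothalamus or liver. Col4a5 had no called site in any tissue, with levels of 66.8% and 67.0% in adipose tissue, 67.9% and 69.5% in hypothalamus, and 58.8% and 59.8% in liver.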

How the results depend on the processing

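With p-values scaled by the excess over counting error, the called collagen sites between BPA and control pools went from 40 to 0 in adipose tissue and from 7 to 4 in liver, and of 12 leading sites 10 lost their call. With a minimum difference of 20 points, 502, 501 and 485 collagen sites were called between control pools of adipose tissue and hypothalamus, adipose tissue and liver, and hypothalamus and liver, instead of 908, 999 and 944. The other alternatives kept each count of called sites within 1.5 times its value, 34 to 41 in adipose tissue, 5 to 7 in liver and 0 in hypothalamus, and the interaction counts stayed 0 at a minimum of 20 reads. With each site weighted equally, 4 of 30 level differences between tissues reversed, namely Col11a1 (1.25 points), Col15a1 (6.28) and Col6a1 (0.71) for hypothalamus minus adipose tissue and Col20a1 (-0.0531) for liver minus hypothalamus. A further 18 moved by more than counting error without reversing. Among the gene levels checked in single pools, 95 moved by more than counting error and 13 did not. Col1a2 in the control pool of adipose tissue, for instance, stood at 28.0% over reads and at 42.8% with equal site weight. No paired analysis was possible because the deposited columns are pools, and for the same reason leaving out each replicate was not run. Depth limits what can be called at sites with few reads, and the numbering of the pools decides every direction between control and BPA.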
